A study of Mus musculus with 8 samples.

Results

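Repeat-derived accessible regions of medullary thymic epithelial cells (mTECs) are stretches of open chromatin that lie mainly in sequence the mouse reference marks as repetitive. They were taken from the consensus regions of an ATAC-seq experiment, in which the Tn5 transposase cuts accessible DNA and leaves sequencing adapters behind. A region was counted as repeat-derived when it lay on an autosome, when 50% or more of its bases were soft-masked in the GRCm38 assembly of the mouse genome (mm10), and when its centre lay more than 1000 bases from every transcription start in the basic set of GENCODE M21. By this rule 1515 regions were repeat-derived, which was 3.83% of the 39565 distal autosomal regions and 2.65% of all 57124 regions. The 38050 distal autosomal regions that were less than 50% masked served as the comparison and are named other distal regions. The cells were sorted from the thymus of mice of wild-type (wt) genotype and fell into 4 groups, Tspan8neg MHCIIlow, Tspan8pos MHCIIlow, Tspan8neg MHCIIhigh and Tspan8pos MHCIIhigh, with 2 biological replicates in each. Per the study's methods the mice were of the BL6N6 strain, and mTECs were gated as CD45-negative, Epcam-positive and CDR1-negative. Tspan8 is a tetraspanin at the cell surface and MHC class II (MHCII) presents antigen, and both were used to gate the cells. The columns of read counts could not be tied to these samples by their names and were not used, so the regions belong to the set as a whole. No level, group difference or depth per sample is given, and the labelled cell type could not be checked by its markers.

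Repetitive sequence in mammalian genomes comes in a few forms. Interspersed repeats are copies of mobile elements such as SINEs, LINEs and the long terminal repeats of endogenous retroviruses, whereas satellites and simple repeats are short units repeated head to tail. Most copies are kept silent by DNA methylation and repressive histone marks, and some carry sequences that transcription factors bind. mTECs are known for transcribing a very wide range of tissue-restricted genes under the regulators Aire and Fezf2. Soft-masking names no family, so families are named here only where a region aligned to an element that RefSeq annotates.

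The sequences below are the ones on which the description turns. Members were compared with each other by BLAST alignment, and members that aligned to a common central member over 50 or more bases, at 70% or higher identity and over at least 50% of the shorter region, were placed in a group. Groups are numbered by size. For groups 3 to 19 the central member is shown, and capitals mark the stretch that 50% or more of the aligned members covered. Of group 1 the shared stretch alone is shown. The region nearest Tspan8 belongs to group 1, and its capitals mark soft-masked bases, here its whole length.
Group 1, shared stretch, chr16:59667967-59668054: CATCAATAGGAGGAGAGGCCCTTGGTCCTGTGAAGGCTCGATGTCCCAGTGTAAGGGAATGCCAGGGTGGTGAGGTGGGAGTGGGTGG
Group 1, region nearest Tspan8, chr10:115805533-115805677: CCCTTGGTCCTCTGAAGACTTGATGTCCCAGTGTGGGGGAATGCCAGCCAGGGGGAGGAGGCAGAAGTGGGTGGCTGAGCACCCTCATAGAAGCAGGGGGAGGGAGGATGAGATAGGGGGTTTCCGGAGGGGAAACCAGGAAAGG
Group 3, chr10:107709735-107709900: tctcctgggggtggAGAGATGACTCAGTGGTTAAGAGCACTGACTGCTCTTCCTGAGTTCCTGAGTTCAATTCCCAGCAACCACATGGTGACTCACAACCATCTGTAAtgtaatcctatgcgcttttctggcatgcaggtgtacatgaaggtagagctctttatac
Group 6, chr10:119091478-119091579: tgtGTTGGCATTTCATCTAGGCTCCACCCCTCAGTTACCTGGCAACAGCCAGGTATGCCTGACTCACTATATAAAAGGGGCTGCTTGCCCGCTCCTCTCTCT
Group 8, chr8:33074919-33075047: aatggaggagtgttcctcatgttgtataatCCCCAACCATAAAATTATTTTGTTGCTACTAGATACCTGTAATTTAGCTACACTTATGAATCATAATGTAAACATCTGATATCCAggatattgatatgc
Group 9, chr9:123496740-123496942: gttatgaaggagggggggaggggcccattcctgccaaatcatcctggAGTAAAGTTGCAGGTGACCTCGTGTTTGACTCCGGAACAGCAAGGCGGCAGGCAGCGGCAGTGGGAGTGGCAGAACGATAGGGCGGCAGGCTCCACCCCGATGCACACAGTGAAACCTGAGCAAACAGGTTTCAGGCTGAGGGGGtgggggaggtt
Group 12, chr16:3235988-3236261: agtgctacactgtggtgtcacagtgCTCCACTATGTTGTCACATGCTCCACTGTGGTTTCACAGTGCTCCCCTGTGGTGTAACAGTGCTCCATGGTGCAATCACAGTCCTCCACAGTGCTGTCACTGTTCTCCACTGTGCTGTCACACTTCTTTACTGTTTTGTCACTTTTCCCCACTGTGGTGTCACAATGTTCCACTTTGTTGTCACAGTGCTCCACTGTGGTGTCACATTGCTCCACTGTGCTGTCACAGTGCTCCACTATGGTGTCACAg
Group 19, chr7:16681717-16681957: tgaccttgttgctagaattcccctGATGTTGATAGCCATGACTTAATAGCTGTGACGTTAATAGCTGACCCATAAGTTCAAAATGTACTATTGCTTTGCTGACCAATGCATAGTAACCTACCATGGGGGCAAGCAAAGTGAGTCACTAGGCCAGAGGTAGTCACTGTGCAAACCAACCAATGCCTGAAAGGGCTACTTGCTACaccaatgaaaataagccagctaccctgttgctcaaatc

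The central 200 bases of the widest repeat-derived region are also given, as an example of a wide member, with soft-masked bases in capitals. All coordinates are GRCm38 and all sequences are written from the forward strand.
Widest region, central part, chr14:19417204-19417403: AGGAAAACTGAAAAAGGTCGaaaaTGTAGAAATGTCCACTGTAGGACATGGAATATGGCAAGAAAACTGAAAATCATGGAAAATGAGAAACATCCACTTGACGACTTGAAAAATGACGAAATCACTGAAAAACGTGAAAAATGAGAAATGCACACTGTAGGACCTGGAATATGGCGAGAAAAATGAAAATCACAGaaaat

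Few distal regions lay mainly in masked sequence. Soft-masked bases made up 33.5% of the autosomal sequence but 9.53% of the bases in distal regions. There were 1.89 repeat-derived regions per Mb of masked autosomal sequence and 23.9 other distal regions per Mb of unmasked sequence, a ratio of 12.6. The authors discarded reads that aligned to several places, which removes signal from sequence present in near-identical copies, and its part in this ratio was not tested. The number of distal regions fell with each 10% step of masked share from 27525 regions at under 10% to 188 regions at 80 to 90%, and was 354 regions at 90% and above. Among repeat-derived regions 645 were at least 75% masked (42.6%, 95% Wilson interval 40.1 to 45.1) and 203 were masked along their whole length (13.4%, 11.8 to 15.2). Intervals cover counting error over regions only, since regions are not replicates of the experiment.

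**Figure D1:**
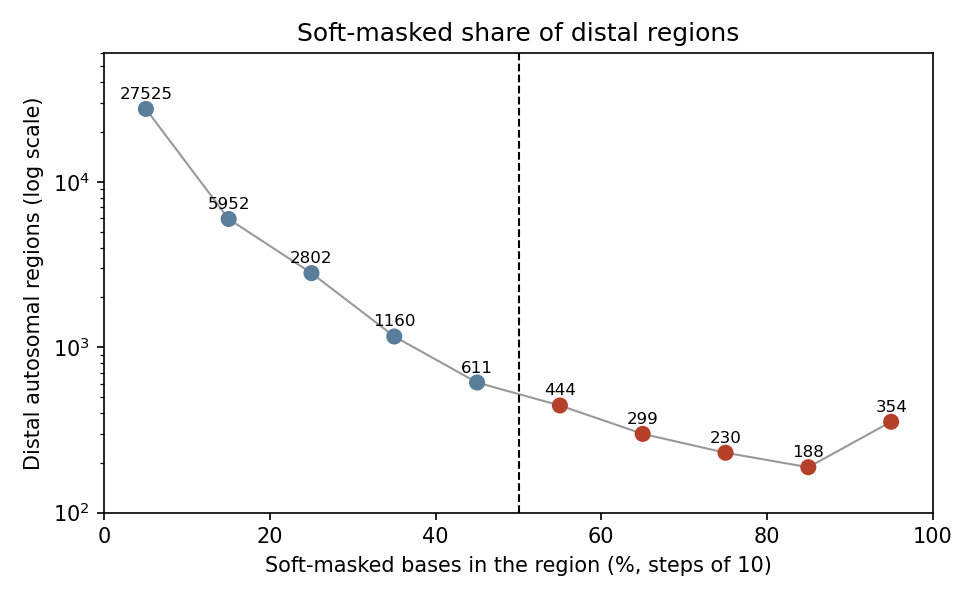
Number of distal autosomal regions (y axis, log scale) in each 10% step of soft-masked share (x axis). Red points right of the dashed line at 50% are the repeat-derived regions, with 444 regions in the first step and 354 in the last, and blue points are the other distal regions.

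The rule drew a line through a continuous range. A member just inside it, a region of 312 bases (chr10:14965144-14965455), was exactly 50% masked. The 2 regions just outside were 49.9% masked (chr17:16067853-16068277 and chr15:74933714-74934487). By distance, the nearest members lay 1003 and 1005 bases from a start and the nearest masked regions left out lay 983 and 974 bases from one. In all, 142 autosomal regions that were at least 50% masked lay too close to a start to be counted.

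Repeat-derived regions were narrower than other distal regions. Their median width was 126 bases (quartiles 88 to 207, range 67 to 3162), against 168 bases (106 to 282) for other distal regions. Regions under 100 bases made up 33.6% (31.3 to 36.0) of them and 21.1% (20.7 to 21.5) of other distal regions, and regions of at least 500 bases made up 3.17% (2.40 to 4.18) and 6.32% (6.08 to 6.57). The order turned at the upper end of the plot of widths, where the 7 repeat-derived regions in the widest class were 0.462% of their set and the 93 other distal regions were 0.244% of theirs. With 7 regions and no interval computed for this class, the turn is uncertain. How peaks were found and merged also enters into a region's width.

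**Figure D2:**
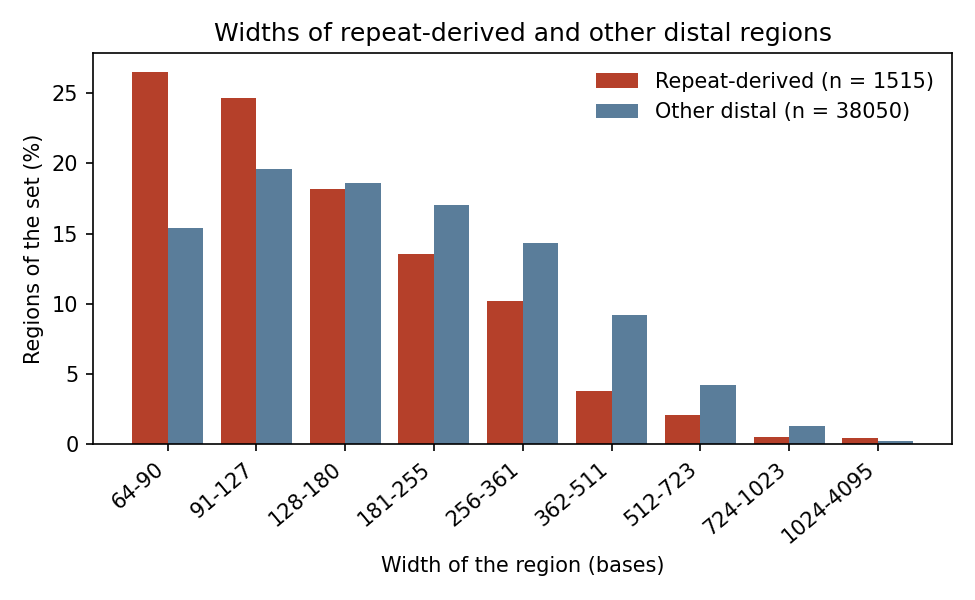
Share of each set of regions (y axis, in percent) by width in bases (x axis, classes of equal ratio except the last), for repeat-derived (red) and other distal regions (blue). Repeat-derived regions take the larger share in both narrowest classes, with 26.5% against 15.4% in the first.

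The median repeat-derived region was 70.5% masked (quartiles 58.0 to 88.5). The masked run with the largest overlap, measured along its whole length, had a median of 94 bases (58 to 199). GC content was close in both sets, with a median of 50.4% (45.6 to 54.8) in repeat-derived and 51.4% (47.0 to 55.9) in other distal regions. CpG dinucleotides, the usual target of DNA methylation in mammals, were scarcer. The ratio of observed to expected CpG had a median of 0.138 in repeat-derived and 0.238 in other distal regions, and 35.6% (33.2 to 38.02) of repeat-derived regions held no CpG, against 13.6% (13.2 to 13.9) of the wider other distal regions.

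Repeat-derived regions lay more often between genes than other distal regions did. By its centre, a region was placed in an exon, otherwise in an intron, otherwise between genes. Of the 1515 regions, 829 were intergenic (54.7%, 52.2 to 57.2), 667 were intronic (44.0%, 41.5 to 46.5) and 19 were exonic (1.25%, 0.804 to 1.95). Among other distal regions 43.1% (42.6 to 43.6) were intergenic, 51.3% (50.8 to 51.8) intronic and 5.62% (5.39 to 5.85) exonic. Counted by the whole span of each gene, which can reach past the transcripts of the basic set, 602 members lay within a protein-coding gene and 75 within a lincRNA gene without one. The distance to the nearest start was alike in both sets, with a median of 15012 bases (quartiles 6490 to 31812) for repeat-derived and 14482 bases (6239 to 31820) for other distal regions. Beyond 100 kb the shares were 5.28% (4.26 to 6.52) and 3.92% (3.73 to 4.12).

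The regions were spread over all 19 autosomes. Chromosome 4 held most, 126 regions, and chromosome 19 fewest, 33. Per Mb of masked sequence the count ran from 1.38 on chromosome 12 to 2.41 on chromosome 4, with a median of 1.90. Repeat-derived regions made up 2.77% (2.17 to 3.52) of the distal regions of chromosome 11, the lowest share, and 4.71% (3.97 to 5.58) of those of chromosome 4, the highest. Both were picked as the extremes of the 19 autosomes, so setting their intervals side by side is no test of a difference.

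**Figure D3:**
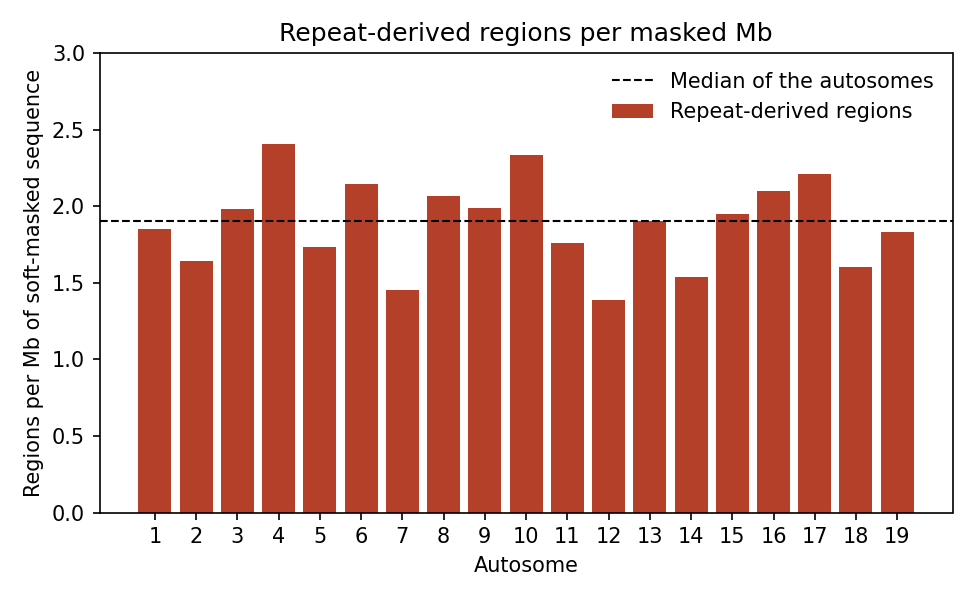
Repeat-derived regions per Mb of soft-masked sequence (y axis) on each of the 19 autosomes (x axis). The dashed line is the median of the autosomes, 1.90, with chromosome 4 highest at 2.41 and chromosome 12 lowest at 1.38.

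Repeat-derived regions mixed sequence found once in the genome with sequence found many times. Every run of 31 bases in a region, named a word here, was counted over both strands of the reference. More than 50% of the words occurred once in 1240 repeat-derived regions (81.8%, 79.8 to 83.7), against 99.5% of other distal regions. This share depended on the limit, since more than 90% of the words occurred once in 39.1% of repeat-derived regions, and among the fully masked regions more than 50% occurred once in 48.8%. All words occurred once in 349 of them (23.0%, 20.99 to 25.2), against 93.1%. With words of 51 bases, all were found once in 1064 regions (70.2%, 67.9 to 72.5). At the other end, 20 regions (1.32%, 0.856 to 2.03) had no 31-base word that occurred once, and 3 of the other distal regions had none. Some word with at least 10 copies was present in 875 repeat-derived regions (57.8%, 55.3 to 60.2) and in 2.48% of other distal regions. Of these 875 regions 606 were also among those in which more than 50% of the words occurred once. Soft-masking marks repeated sequence and was used to split the 2 sets. The contrasts in word copies therefore follow in part from the rule that defined the sets, and how far was not tested.

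Many repeat-derived regions resembled each other. In all, 1179 of the 1515 (77.8%) aligned to at least 1 other member by the rule given above, and 336 aligned to none. The 29 groups with at least 10 members held 633 regions (41.8%, 39.3 to 44.3). By the same rule 312 of the 38050 other distal regions (0.820%, 0.734 to 0.916) aligned to one of the 29 central members. The groups were found among the repeat-derived regions themselves, so these shares are a description of the groups and not an independent comparison.

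**Figure D4:**
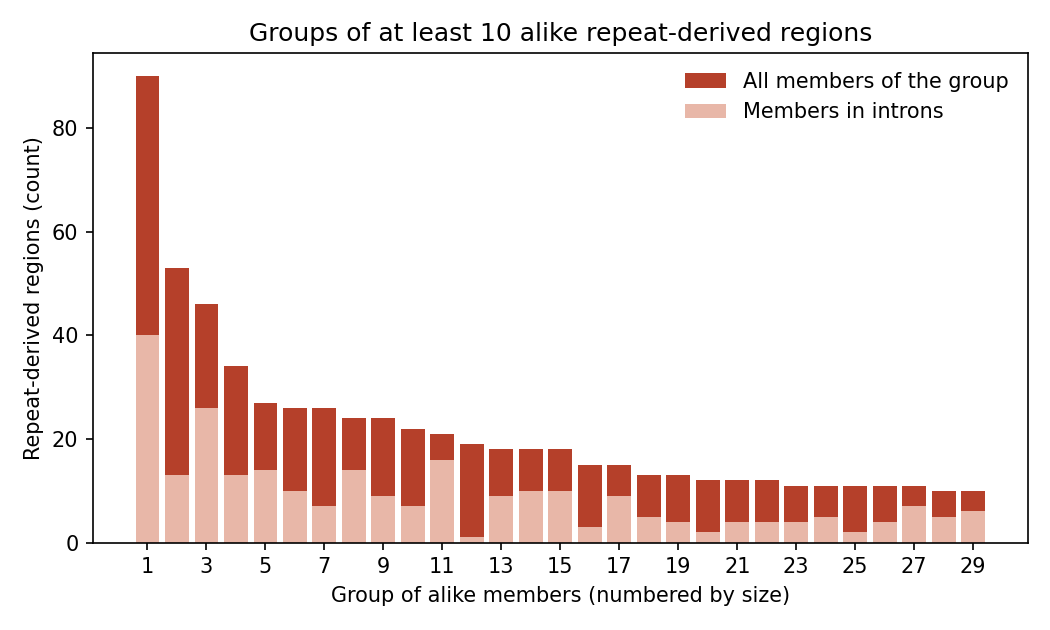
Number of repeat-derived regions (y axis) in each of the 29 groups of alike members (x axis, numbered by size). Dark bars give the whole group and pale bars the members in introns, with 90 members and 40 of them intronic in group 1, and 19 members and 1 intronic in group 12.

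Group 1 was the largest, with 90 regions on 18 autosomes, 49 of them intergenic and 40 intronic. Its members were rich in G and C, with a median GC content of 54.8%, and lay in masked runs with a median of 210 bases. They aligned to the central member over a median of 109 bases at a median identity of 81.4% (range 70.8 to 92.2%). Of other distal regions, 3 aligned to this central member. The fully masked region of 145 bases printed above is a member, 11666 bases from the start of Tspan8 in an intron of the antisense gene 4930422I22Rik. Tspan8 is the tetraspanin gene that gave the sort its marker.

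Group 2 held 53 regions on 17 autosomes, and 39 of them were intergenic. Its members were closer to each other than those of group 1, at a median identity of 90.8% over a median of 204.5 bases. In this group 26 regions aligned to LTRIS4, a long terminal repeat that RefSeq annotates on chromosome 17. The median member had 43.6% of its 31-base words in a single copy, and 0 other distal regions aligned to the central member. Group 3, with 46 regions on 15 autosomes, was less uniform, at a median identity of 80.5% (70.5 to 93.3%) over a median of 93.0 bases. In group 5, 27 regions shared a run rich in repeated TG, and 106 other distal regions aligned to its central member, the most of any group.

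Alignment to the elements annotated by RefSeq named few of the regions. Of the 1515 repeat-derived regions 63 (4.16%, 3.26 to 5.29) aligned over at least 50 bases to one of them, and of the other distal regions 68 did (0.179%, 0.141 to 0.226). Soft-masking marks repeats of this kind, so this contrast follows in part from the rule that defined the sets. The long terminal repeat LTRIS4 was matched by 32 repeat-derived and 3 other distal regions, and B1_Mus2, a short interspersed element of the B1 family, by 28 and 51. Bc1, the gene of a small brain cytoplasmic RNA, was matched by 4 repeat-derived and 10 other distal regions, Rn4.5s by 3 and 7, and Rn7s1 by 2 and 3. AmnSINE1 and the internal retroviral sequence MuRRS4-int were matched by 0. These are a few annotated copies and not a library of families, so a region with no match is only unnamed.

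Simple head-to-tail sequence made up few of the regions. In 22 regions (1.45%, 0.961 to 2.19) at least 50% of the bases lay in runs of units of 1 to 6 bases. Such sequence is what soft-masking marks, so other distal regions could hardly reach this share by the rule that defined them, and 0 did.

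Repeats at longer spacings were looked for by shifting each region along itself. Among the 179 repeat-derived regions of at least 300 bases, 31 matched themselves at 60% or more of their bases at the best shift between 10 and 400 bases, and in 16 of them that shift was 19 to 26 bases. One of these was a region of 1133 bases at chr17:13590384-13591516, with a best shift of 23 bases and 82.2% identity. The clearest matches were a region of 323 bases at chr10:3116694-3117016, where a shift of 74 bases gave 91.2% identity, and one of 325 bases at chr14:4968937-4969261, where a shift of 135 bases gave 91.1%. Unbroken shifts miss repeats whose units differ in length.

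Of the 5 widest members 2 reached this 60%. The widest was 3162 bases (chr14:19415723-19418884), 84.5% masked, and centred in an exon of Gm21738, which is annotated as protein-coding. Its best shift was 351 bases, at 58.6% identity, and 64.1% of its 31-base words occurred once. It belonged to group 13, as did 2 others of the 5 widest, at chr4:3089607-3091515 (1909 bases, best shift 59 bases at 49.1% identity) and chr9:3006441-3007667 (1227 bases, 58 bases at 50.8%). Group 13 held 18 regions and was poor in G and C, with a median GC content of 36.6%. The second widest was 2484 bases long (chr17:13550688-13553171), 97.8% masked, and lay in an intron of the lincRNA gene 2700054A10Rik. Its best shift was 19 bases, at 67.7% identity, and 12.1% of its words occurred once. The fourth was 1908 bases long and 99.7% masked, at chr13:74528698-74530605, with a best shift of 24 bases at 63.9% identity, 71.1% of its bases in short head-to-tail units and the zinc finger gene Zfp825 as the nearest coding gene. The same 5 regions also held the most masked bases, from 1186 to 2671.

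A share of the repeat-derived regions crowded the start of the chromosome sequences. Mouse autosomes have their centromere at the end from which bases are numbered, and the assembled sequence begins after a long run of unknown bases. Of the repeat-derived regions 59 (3.89%, 3.03 to 4.99) started before base 4000000, against 272 other distal regions (0.715%, 0.635 to 0.805). These 59 lay on 15 autosomes, with 10 on chromosome 11 and 9 on chromosome 4, and 44 were intergenic. Group 12 was nearly restricted to these ends, with 17 of its 19 regions there, and 8 of the 18 regions of group 13 also lay there. Of the 8 regions of group 12 that were at least 300 bases wide, 7 matched themselves best at a shift of 21 bases, and of the 9 such regions of group 13, 6 did so at 58 or 59 bases. More than 50% of the 31-base words occurred once in 43 of the 59 regions (72.9%), against 81.8% of all repeat-derived regions.

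Most repeat-derived regions had no other member within 10 kb. When members within 10 kb of each other were joined, 1376 (90.8%, 89.3 to 92.2) stood alone, and 139 fell into 57 clusters, 12 of which had at least 3 members. The share that an even scatter would leave alone was not computed, so these counts do not show whether members cluster. The largest cluster had 6 regions within 7469 bases at chr10:3109548-3117016, all intergenic and 96.3 to 100% masked. Their nearest coding gene was H60c, which encodes a ligand of the activating receptor NKG2D, at 150895 bases or more. The next had 5 regions at chr17:3020044-3038408, all of group 12. Another cluster of 5 regions lay at chr11:3166705-3182753 within Sfi1, a gene of a centrosome-associated protein, and its members were 60.2 to 88.9% masked. To the nearest region of any kind the gap had a median of 8250 bases for repeat-derived and 6778 bases for other distal regions.

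Short sequence motifs of transcription factors were counted on both strands, as a description of the letters and not of bound sites. AP-1 was searched as TGANTCA, ETS as CNGGAAGT, KLF as GGGNGTGG, the POU octamer as ATGCAAAT, RUNX as TGTGGTT, and CTCF by its core consensus. These are motifs of factor families that include the ETS factors Ehf, Elf3 and Elf5, the Krüppel-like factors Klf1 and Klf4, and Pou2f3, which specifies tuft cells. At least 1 of the 6 motifs occurred in 553 repeat-derived regions (36.5%, 34.1 to 39.0). This joint share was not computed for other distal regions, of which 26.1% held the AP-1 motif, so it does not set the repeat-derived regions apart. Because the sets differed in width, the share of other distal regions holding each single motif was weighted to the widths of the repeat-derived ones.

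RUNX and KLF motifs occurred in a larger share of repeat-derived regions than of other distal regions at the same widths. The RUNX motif was present in 136 repeat-derived regions (8.98%, 7.64 to 10.5), against 5.46% of other distal regions, and the KLF motif in 162 (10.7%, 9.24 to 12.3), against 7.95%. Of the 136 RUNX regions, 61 lay in groups 2 and 3, whose members are alike. The RUNX share is therefore not a trait spread evenly over the set, and the intervals take related copies as independent. Without the weighting the other distal shares were 6.60% for RUNX and 10.2% for KLF, and the latter lies inside the interval of repeat-derived regions. AP-1, ETS and CTCF motifs occurred in smaller shares, with 26.1%, 5.07% and 4.92% of other distal regions before the weighting. The AP-1 motif was present in 286 regions (18.9%, 17.0 to 20.9), against 22.2%, the ETS motif in 44 (2.90%, 2.17 to 3.88), against 4.04%, and the CTCF motif in 17 (1.12%, 0.702 to 1.79), against 5.58%. For the POU octamer, in 20 regions (1.32%, 0.856 to 2.03), the interval took in the 1.69% of other distal regions. Over all 57124 regions, without weighting, the shares were 21.3% for AP-1, 8.07% for ETS, 16.5% for KLF, 1.95% for the POU octamer, 6.14% for RUNX and 3.94% for CTCF.

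**Figure D5:**
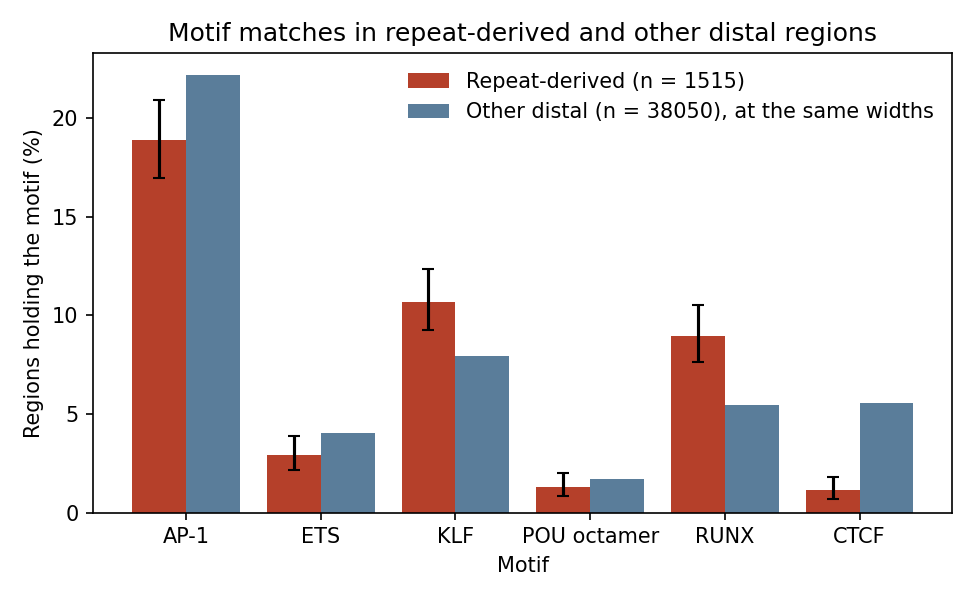
Share of regions holding each motif (y axis, in percent) for 6 motifs (x axis). Red bars are the 1515 repeat-derived regions with 95% Wilson intervals, and blue bars the 38050 other distal regions weighted to the same widths, with RUNX at 8.98% against 5.46% and CTCF at 1.12% against 5.58%.

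Masked bases made up 72.3% of the sequence of repeat-derived regions and held 560 of their 734 matches to the 6 motifs (76.3%). The RUNX motif occurred 0.629 times per kb in masked and 0.354 times in unmasked bases, and the KLF motif 0.780 and 0.435 times. The ETS motif occurred 0.140 times per kb in masked bases (27 matches) and 0.231 times in unmasked bases (17 matches). For the CTCF motif the rates were 0.0520 (10 matches) and 0.0952 (7 matches). No intervals were computed for these rates, so no direction is drawn from such low counts. The AP-1 motif was about as dense in both, at 1.21 and 1.18 matches per kb. The POU octamer occurred 0.0987 and 0.0680 times per kb, on 19 and 5 matches. In other distal regions unmasked bases held 1.5 AP-1 matches per kb and masked bases 0.787. KLF matches were densest in the masked bases of other distal regions, at 1.93 per kb.

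Motifs recurred at set places within groups of alike members. The groups with a motif in at least 10 members were chosen after the counts were seen. In group 8 the AP-1 motif occurred in 21 of 24 regions (87.5%, 69.0 to 95.7), and in 19 of them it aligned within 2 bases of position 90 of the sequence printed above, counted from 1 at its first base. In group 19 the AP-1 motif occurred in 11 of 13 regions, and 10 matched at position 142. In group 6 it occurred in 10 of 26, all at position 63. In group 9 the KLF motif occurred in 20 of 24 regions (83.3%, 64.1 to 93.3), with 19 at position 114. In group 3 the RUNX motif occurred in 29 of 46 regions (63.04%, 48.6 to 75.5), with 26 at position 82, and the AP-1 motif in 22, with 13 at position 92. Of the 53 regions of group 2, 26 of which aligned to LTRIS4, 27 held the AP-1 motif and 32 the RUNX motif. For each motif 25 regions matched within 2 bases of a single position. In group 10 the KLF motif occurred in 15 of 22 regions, with 12 at position 44 of a central member that lacks it. In group 1 the KLF motif occurred in 15 of 90, with 11 within 2 bases of a single position. Members of a group share sequence by construction, so these are not independent occurrences. Groups 2 and 3 together held 61 of the 136 regions with a RUNX motif.

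Counted by gene, few with roles in mTECs or in the silencing of repeats were nearest to a repeat-derived region, as with coding genes in general. Each region was assigned to the protein-coding gene with the nearest start. Of 62 listed genes with roles in these cells or in the silencing of repeats, 3 were the nearest coding gene of a repeat-derived region (4.84%), against 1288 of all 20780 autosomal coding genes (6.20%). By contrast, 50 of the 62 (80.6%) were nearest to some other distal region, against 52.8% of all autosomal coding genes. Counted by region, the 62 genes were nearest to 3 repeat-derived and 271 other distal regions. Over all autosomal coding genes these counts were 1515 and 38050, so that 3.83% of the distal regions were repeat-derived. The share at the listed genes was smaller by this count, which rests on 3 regions. The lists include genes on the X chromosome, which no autosomal region was given to.

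By role, 1 of 10 regulators of self-antigen expression was nearest to a repeat-derived region. This was Hnf4g, a nuclear receptor gene, whose region lay 507649 bases from its start at chr3:3000331-3000432, in group 12. Aire, Fezf2, Ehf and the other regulators had none as the nearest gene. Of 5 subset markers, Tspan8 had the single region described above. Of 11 genes that silence repeats, such as Trim28, Setdb1 and Dnmt1, it was Morc3, a gene of the MORC ATPase family, at a distance of 23831 bases. That region lies in an intron of Dop1b (chr16:93808255-93808325), and 57.7% of its 71 bases were short head-to-tail units. None of the 12 genes of maturation and antigen presentation, 11 tuft cell genes, 8 genes of thymic epithelial identity or 5 genes of medullary induction was the nearest coding gene of one. Within an intron of Cd80, which encodes a costimulatory ligand, lay a region of 93 bases that was 64.5% masked (chr16:38491289-38491381), but the nearest coding start was that of Timmdc1.

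Gene families, counted by the start of their symbols, differed in how often they were nearest to repeat-derived regions. Vomeronasal receptor genes (Vmn) were nearest to 17 repeat-derived regions (1.12%, 0.702 to 1.79), against 0.0946% of other distal regions, and olfactory receptor genes (Olfr) to 16 (1.06%, 0.651 to 1.71), against 0.239%. A single gene carried much of each count, since 8 of the 17 were nearest to Vmn1r2 and 7 of the 16 to Olfr161. Without that gene either family kept 9 regions (0.594%, 0.313 to 1.13), against 0.0867% of other distal regions for Vmn and 0.221% for Olfr. Genes with a Zfp symbol, mostly zinc finger proteins, were nearest to 33 (2.18%, 1.56 to 3.04), against 1.31%, and genes with a Tmem symbol, which names transmembrane proteins, to 29 (1.91%, 1.34 to 2.74), against 0.975%. Of the 33 regions 4 were nearest to Zfp709, and of the 29 regions 5 were nearest to Tmem267. For the Slc transporter genes the shares were 1.45% (0.961 to 2.19) and 1.95%, for Cyp genes 0.396% (0.182 to 0.861) and 0.181%, and for Gm gene models 3.04% (2.28 to 4.03) and 2.18%. No keratin (Krt) or serpin gene was nearest to any of the 1515 regions, whereas 70 and 65 other distal regions had one. With 0 of 1515, the interval for either family reached 0.253%, which takes in the 0.184% and 0.171% of other distal regions.

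Several genes had a number of such regions. C130026I21Rik and Sfi1 were each nearest to 9 repeat-derived regions, out of 28 and 45 distal regions in all. The vomeronasal receptor gene Vmn1r2 was nearest to 8 of 11, the olfactory receptor gene Olfr161 to 7 of 14, and H60c to 6 of 6. Nearest did not always mean near. Among the Vmn1r2 regions 1 lay 76759 bases from its start, and among the Olfr161 regions 1 lay 354918 bases away. Cntnap2, a very long neuronal gene of the neurexin family, was nearest to 6 of 22.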

How the data were processed

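ATAC-seq was done on sorted mouse mTECs, 8 samples in 4 groups. Per the methods of the study, the authors aligned the reads to mm10 with Bowtie2, dropped mitochondrial, multimapping and low-quality reads, marked duplicates with Picard, found broad peaks with MACS2 and merged them with bedtools. The sources used here do not say whether peaks were called by sample or on pooled reads. Per the file headers, featureCounts 2.0.3 then counted reads over the merged regions. The deposited start, end and length of each region, in bases, are the values used. The 8 columns of read counts matched no sample label and entered no step, so no normalised counts are given, and the planned count tests and their alternatives were not run, and depth is not analysed here.

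Soft-masking was read from the RefSeq GRCm38 sequence (the masking tool is not given in the sources used here) and genes from GENCODE M21. Python 3.11.15 scripts, tested on simulated data, counted words and motifs, and BLAST 2.17.0 compared regions (e-value 1e-5). No test was run. Regions and genes named follow rules: the 5 widest, the 5 with most masked bases, the 3 with most copies, the 3 longest clusters, those nearest the thresholds, and those in or nearest a listed gene. Some regions that these rules name are not reported here. Members, lists and rules were chosen with earlier results of these data known. The groups of alike regions, the RefSeq elements, the repeat shifts, the first Mb, the motif places and the genes with several regions were taken up after the regions were seen. Linking every alike pair was tried first and chained up to 925 regions into 1 group (728 at 80% identity, 377 with 80 aligned bases), so groups around a central member were used.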

Additional observations from a re-analysis of the deposited data

How the results depend on the processing

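No paired analysis was possible because no column of counts could be tied to a sample or a replicate. Over 14 results, 58 alternatives were computed. Requiring 40% masked bases gave a share of distal regions of 5.37% and mostly unique words in 86.5%. Requiring 75% left 645 regions, 1.63% of distal regions, with 57.5% intergenic, a median width of 116 bases, mostly unique words in 67.6% and short head-to-tail sequence in 2.79%. Requiring 100% left 203 regions (0.513%), with 58.1% intergenic, a median width of 96 bases, and 48.8% and 6.90% for the last 2 quantities. Regions of at least 200 bases numbered 400 (2.48%), with 58.0% intergenic, a median width of 288 bases and mostly unique words in 75%. With 51-base words 94.2% were mostly unique, and with 90% of words in place of 50% it was 39.1%. The other 37 alternatives, among them distances of 2000 and 5000 bases, distance from the edge, all GENCODE transcripts and motifs in the central 200 bases, stayed within the interval of the reported share or median, or within 1.5 times the reported count. Alternatives chosen after seeing the data were 80% identity, which left 462 regions in 23 groups, and no minimum aligned length, which gave 73 regions alike to a RefSeq element. Regions from reads with several alignments are limited by the removal of those reads.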
